A study of Rattus norvegicus with 421 samples.

Results

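Complement and coagulation proteins were followed as transcripts in the liver of rats given 1 of 30 compounds. A list of 36 genes was taken, and their probe sets were read in all 98 treated groups against the vehicle group that each label names. On the array 24 of the 36 genes had a probe set of their own, out of 10411 genes measured in this way. They comprised 9 of 15 complement genes, 8 of 13 genes of clotting, contact activation and fibrinolysis, and 7 of 8 inhibitors and regulators. The genes C2, C4a, Cfb and Kng1 had probe sets that carry the symbols of several genes, and no value is given for them. No probe set was listed for C5, C6, C8a, F7, F9, F11, F12 and Serpinc1, which were therefore not analysed here.

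The samples were livers of male Wistar Hanover rats, stock Crl:WI[Gl/BRL/Han]IGS BR, aged 8 to 10 weeks, dosed by gavage for up to 14 days (Aap up to 48 hours), with 1 Affymetrix RAE230A array per animal. There were 293 arrays of treated animals, and vehicle arrays of animals given corn oil (30), carboxymethylcellulose (86) or saline (12). Most groups held 3 animals. The paper states that 3 of 5 rats per treated group were chosen, those with at least some liver changes on histopathology. It covers only part of the 30 compounds and does not say how vehicle animals were chosen. Errors and p-values rest on a variance pooled for each probe set over all groups. They do not describe the spread among the few, partly selected animals of 1 comparison. A group is named by compound and time, so that ETH_3d is ethionine at 3 days. Some compounds share their vehicle arrays, among them DHEA with Wy-14643, and ethionine with diethylstilbestrol and piperonyl butoxide. The values are log2 levels, array medians lay between 7.384 and 7.491, and for arrays it is the number of animals that limits the precision.

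The liver makes most of the complement and clotting proteins of the blood. Complement is a chain of proteases and pore-forming proteins that marks and lyses microbes; it starts when C1q carries the proteases C1r and C1s to antibody, or when mannose-binding lectins carry MASP proteases to sugars. Clotting is a second chain of proteases that ends with thrombin cutting fibrinogen into fibrin, while plasmin dissolves the clot and circulating inhibitors hold each step in check. Several of these proteins change in blood during inflammation and liver injury, and blood clotting times are used as a measure of what the liver can make.

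The transcripts of complement and clotting proteins moved downward far more often than upward. To be called, a member had to pass 2 thresholds in limma: 1.5-fold, and 0.05 for the p adjusted by Benjamini and Hochberg. Over the 2352 pairs of a member and a treated group, 111 (4.72%) were called lower and 4 (0.17%) higher, against 0.78% lower and 1.13% higher over all genes and the same groups. The shares over all genes, here and below, were not matched for level. The members had mean levels from 10.437 (Masp1) to 14.555 (C3), far above the array medians of 7.384 to 7.491. Among complement genes 67 of 882 pairs (7.6%) were lower and 3 higher. Among clotting genes 35 of 784 pairs (4.46%) were lower and 1 higher, and among inhibitors 9 of 686 (1.31%) were lower and none higher. The count for the inhibitors was less firm, at 16 after quantile normalization and 17 without replicate 1 of every group. By adjusted p alone, 434 pairs (18.5%) were lower and 30 (1.28%) higher, against 3.46% and 4.17% over all genes. By that measure the inhibitors, with 147 pairs lower, stood beside complement with 158 and clotting with 129.

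The falls were concentrated in a few compounds. Of 98 treated groups 30 held a member that fell, 3 held one that rose and 65 held none. Dehydroepiandrosterone (DHEA) accounted for 26 falls, ethionine (ETH) for 21, Wy-14643 (Wy) for 17, acetaminophen (Aap) for 13, cyproterone acetate (CPA) for 12, and diethylstilbestrol (DES) and piperonyl butoxide (PBO) for 7 each. Methylendianiline (MDA) had 2 and another 6 compounds had 1 each, while 14 compounds had no call in either direction. Over all genes, falls were also more frequent in every group of DHEA, ETH, Wy, Aap, CPA, DES and PBO. Their shares ran from 0.807% (DHEA_1d) to 5.8% (ETH_3d), against 0.78% over all groups. In these compounds falls were thus not limited to the members. The members did not follow the share of all genes in every group, however. C.I. Direct Black at 7 days (CIDB_7d) had 1.91% of all genes lower and 0 members. Acetamide at 7 days had 1.53% and 1 member, whereas Wy_1d had 1.72% and 10 members. Treated and vehicle arrays overlapped in the falls of Klkb1 in DHEA_7d, F5 in ETH_1d and Masp1 in MDA_7d.

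**Figure D1:**
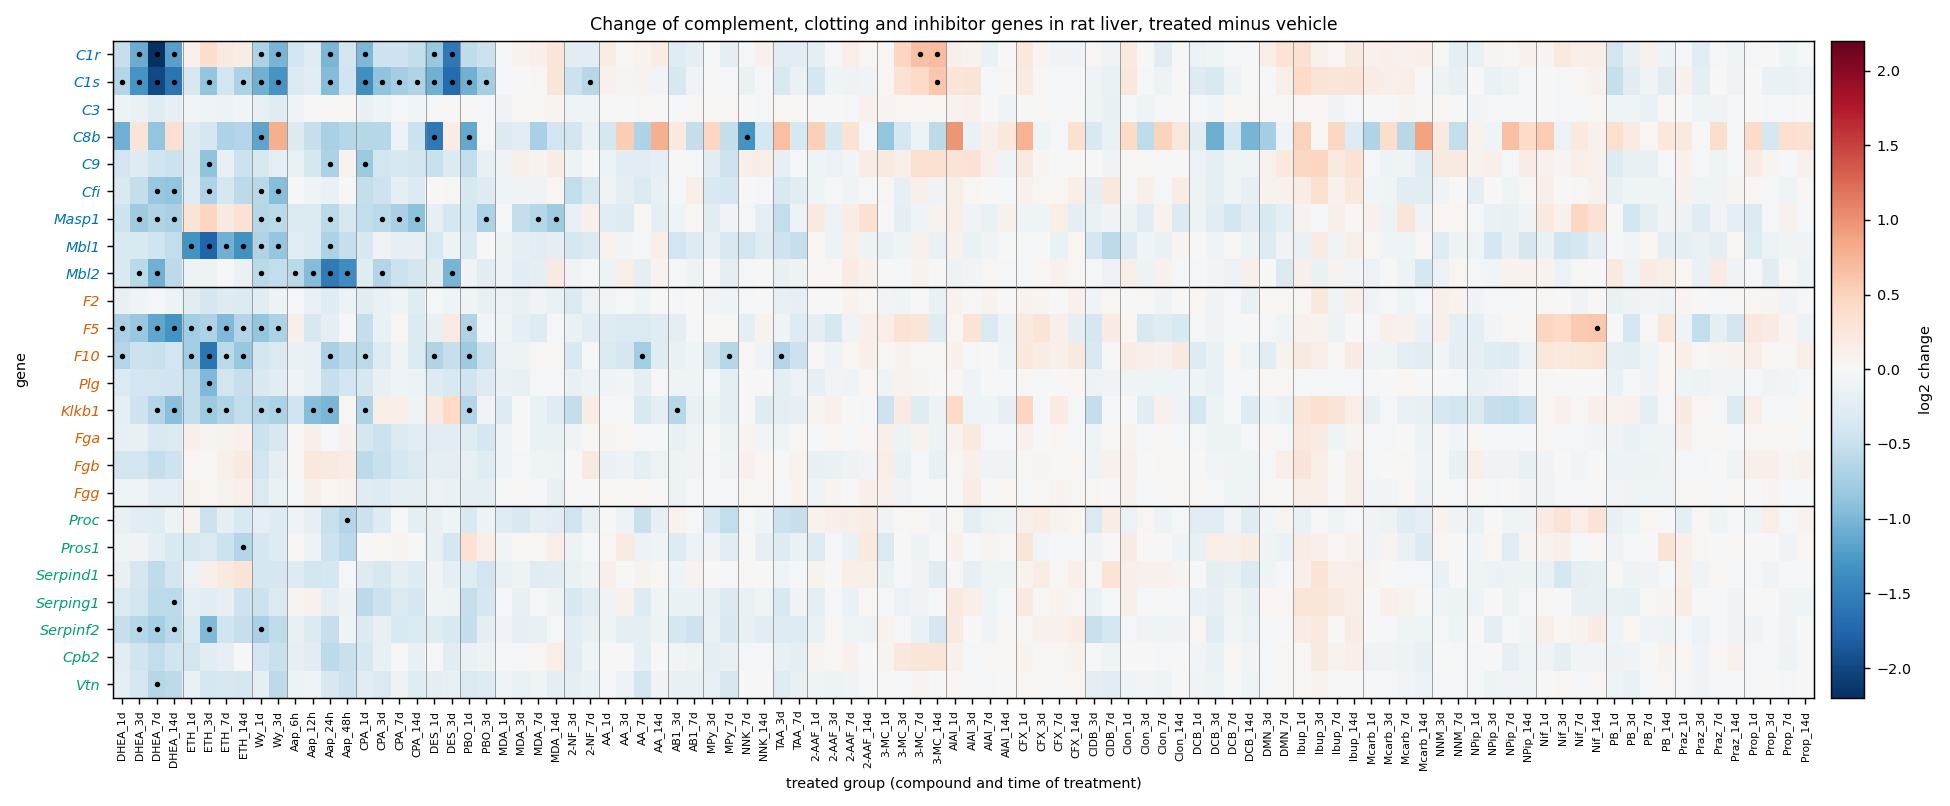
Change of the 24 members (rows; blue names complement, orange clotting, green inhibitors) in the 98 treated groups (columns, by compound and time), as log2 of treated minus vehicle, with blue for lower and red for higher; black dots mark the 115 calls at adjusted p below 0.05 and at least 1.5-fold. The dots lie almost all in the columns of DHEA, ETH, Wy, Aap, CPA, DES and PBO, and C3, F2, Serpind1, Cpb2 and the 3 fibrinogen genes have none.

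Promoters of 4 members are shown, of genes with large falls and of 1 without. C1r had the largest fall of all members, Mbl1 that of the lectin genes and F10 that of the clotting genes. Fgb, the fibrinogen beta chain, had none that passed both thresholds. The sequences are the 250 bases before the start of each gene in the GRCr8 assembly, from RefSeq, 5′ to 3′ on the strand of the gene. Capitals mark matches on either strand to 5 short motifs of liver and acute phase factors: TTCNNNGAA for STAT, TTGCNNAA for C/EBP, GTTAAT for HNF1, TGTTTNC for FOXA and CAAAGNNCA for HNF4. C1r lies at chr4:159098763-159099012 (plus strand), Mbl1 at chr16:17062982-17063231 (plus strand), F10 at chr16:83190281-83190530 (minus strand) and Fgb at chr2:170700876-170701125 (minus strand).
C1r: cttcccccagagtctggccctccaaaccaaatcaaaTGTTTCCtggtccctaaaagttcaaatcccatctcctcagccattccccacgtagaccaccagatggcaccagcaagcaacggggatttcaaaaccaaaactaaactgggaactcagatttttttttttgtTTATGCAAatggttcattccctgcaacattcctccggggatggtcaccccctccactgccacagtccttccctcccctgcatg
Mbl1: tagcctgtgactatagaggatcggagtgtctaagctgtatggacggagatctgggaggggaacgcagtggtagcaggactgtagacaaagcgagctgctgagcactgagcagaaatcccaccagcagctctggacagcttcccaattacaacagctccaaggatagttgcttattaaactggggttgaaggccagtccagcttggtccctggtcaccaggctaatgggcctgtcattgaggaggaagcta
F10: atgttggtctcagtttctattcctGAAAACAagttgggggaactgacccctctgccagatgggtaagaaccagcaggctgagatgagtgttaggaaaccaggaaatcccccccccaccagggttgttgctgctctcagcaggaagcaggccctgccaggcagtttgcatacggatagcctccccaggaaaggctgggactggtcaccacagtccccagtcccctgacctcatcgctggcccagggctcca
Fgb: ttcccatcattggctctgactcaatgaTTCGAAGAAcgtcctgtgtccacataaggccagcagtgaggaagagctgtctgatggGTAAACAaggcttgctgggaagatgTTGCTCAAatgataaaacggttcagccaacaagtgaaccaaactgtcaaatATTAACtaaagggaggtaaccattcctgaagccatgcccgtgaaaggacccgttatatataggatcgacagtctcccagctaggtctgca
Fgb held a match to 4 of the 5 motifs, C1r to C/EBP and FOXA, F10 to FOXA, and Mbl1 to none. Promoters were found for 19 of the 24 members. The FOXA motif was present in 8 of these 19 (42.1%) and in 18.3% of 33469 promoters of the same length, the C/EBP motif in 6 (31.6%, against 9.22%), the HNF1 motif in 5 (26.3%, against 6.45%), the STAT motif in 4 (21.1%, against 7.67%) and the HNF4 motif in 1 (5.26%, against 5.22%). Genes that fell often and genes that did not are both found among those with a match: C1r, C3 and Fga all held the C/EBP motif. These are matches of letters in a short window and were not tested as binding sites.

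The complement protease genes C1r and C1s, which encode the paired proteases of the first complement component and lie close together on chromosome 4, gave the largest falls of all members. In the livers of rats given DHEA (600 mg/kg), an adrenal steroid that acts in rat liver as a peroxisome proliferator, for 7 days, C1r read 9.01, 8.85 and 9.49, while the 6 vehicle animals lay between 10.9 and 11.6 with a median of 11.29. C1s read 9.94, 9.99 and 10.07 in the same treated animals, against 11.74 to 12.26 with a median of 12.03. Every treated animal lay more than 1 log2 unit below every vehicle animal for both genes. The change was -2.18 ± 0.12 for C1r (4.53-fold lower, limma adjusted p = 3.41e-48) and -1.99 ± 0.14 for C1s (3.97-fold lower, adjusted p = 8.7e-34), where ± gives the standard error of the fit. Limma fits of these groups alone gave an adjusted p of 3.18e-07 for C1r and 1.37e-08 for C1s.

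C1s was the member that fell most often, in 18 treated groups of 8 compounds, and C1r fell in 9 groups of 5 compounds, at all of which C1s fell too. Both fell under DES, a synthetic estrogen, at 3 days: C1r read 9.43, 9.73 and 10.03 against 11.37, 11.26, 11.35 and 11.21 in vehicle animals. C1s read 9.97, 10.2 and 10.64 against 12.1, 11.82, 12.03 and 11.96. The changes were -1.57 ± 0.13 and -1.70 ± 0.15, with no overlap of the groups. C1s alone passed both thresholds under PBO (-1.06 ± 0.15 at 1 day), 2-nitrofluorene (2-NF, -0.61 ± 0.16 at 7 days) and ETH. With PBO C1r was lower too, by -0.56 ± 0.13 at 1 day (limma adjusted p = 0.000136) and -0.48 ± 0.13 at 3 days (adjusted p = 0.00451). Both of these changes were under 1.5-fold.

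Ethionine, an analogue of methionine, was the compound in which C1r and C1s moved apart. At 3 days C1s read 11.2, 11.33 and 10.8 against 12.1, 11.82, 12.03 and 11.96 in vehicle animals, a change of -0.87 ± 0.15. C1r read 11.6, 11.72 and 11.74 against 11.37, 11.26, 11.35 and 11.21, a change of 0.39 ± 0.13 that passed the adjusted p (0.00865) but not the fold. All treated animals thus lay below all vehicle animals for C1s and above them for C1r. At the other times of ETH, C1r changed by 0.09, 0.20 and 0.16 and C1s by -0.35, -0.42 and -0.69 at 1, 7 and 14 days. The pair was singled out after its values were seen, and the difference between the genes was not tested.

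By the main (brightest) probe set of each gene, the only complement genes that rose were again C1r and C1s, and only with 3-methylcholanthrene (3-MC, 25 mg/kg). Another probe set of Mbl2 and another of Masp1 were each called higher in 1 group. 3-MC is a polycyclic hydrocarbon that activates the aryl hydrocarbon receptor. At 14 days C1r read 11.83, 12.15 and 12.1 against 11.1, 11.61 and 11.33, a change of 0.68 ± 0.14 (1.6-fold, adjusted p = 0.000109). C1s read 12.57, 12.73 and 12.84 against 12.02, 12.2 and 12.16, a change of 0.59 ± 0.16 (1.5-fold, adjusted p = 0.00942). The groups did not overlap, and C1r also rose at 7 days (0.64 ± 0.14). In this group 2 members were higher, against 0.874% of all genes. Both rises lay near a threshold: C1r had an adjusted p of 0.0552 in a limma fit of its own groups alone, and C1s had 0.0802 without the third treated animal.

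**Figure D2:**
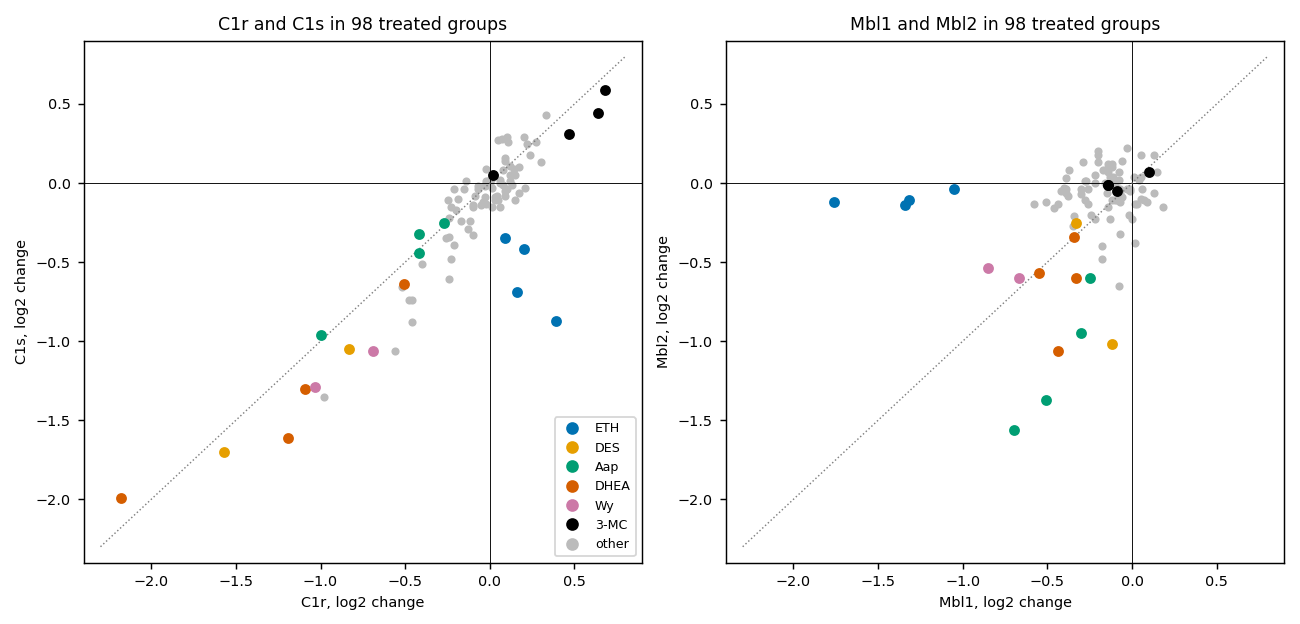
Log2 change of C1s against C1r (left) and of Mbl2 against Mbl1 (right), 1 point per treated group, 98 in all; the dotted line marks equal changes, and 6 compounds are coloured. On the left the points of DHEA, DES, Wy and Aap run down along the line to -2.18 for C1r, while those of ETH lie off it with C1r above 0 and C1s below; on the right ETH extends along the axis of Mbl1 and Aap and DES along that of Mbl2.

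The mannose-binding lectin genes Mbl1 and Mbl2, whose proteins recognise sugars on microbes and start the lectin pathway, were called lower mostly in different groups. Mbl1 fell in 7 groups, Mbl2 in 9, and both in 2 (Wy_1d and Aap_24h). The pair was described after its values were seen, and the difference between the genes was not tested. At 3 days of ETH, Mbl1 read 10.18, 9.78 and 9.79 against 11.8, 11.67, 11.74 and 11.49, a change of -1.76 ± 0.10 (3.39-fold lower, adjusted p = 1.48e-44). Mbl2 in the same animals read 12.15, 11.79 and 12.17 against 12.22, 11.97, 12.22 and 12.21, a change of -0.12 ± 0.12 (adjusted p = 0.478). Mbl1 was thus separated and Mbl2 overlapped, and Mbl1 was lower at each of the 4 times of ETH, by -1.05 to -1.76.

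With acetaminophen both lectin genes fell, and with diethylstilbestrol Mbl2 was called and Mbl1 was not. At 24 hours after Aap (4250 mg/kg), Mbl2 read 10.6, 11.02 and 10.81 against 12.09, 12.48 and 12.55, a change of -1.56 ± 0.13 (2.95-fold lower, adjusted p = 2.76e-24). Mbl1 read 10.89, 11.34 and 11.24 against 11.9, 11.84 and 11.85, a change of -0.70 ± 0.11, also with no overlap. Mbl2 was the only member called at 6 hours (-0.60 ± 0.13) and was still lower at 48 hours (-1.37 ± 0.13). At 3 days of DES, Mbl2 read 11.07, 11.15 and 11.18 against 12.22, 11.97, 12.22 and 12.21 (-1.02 ± 0.12). Mbl1 read 11.51, 11.61 and 11.55 against 11.8, 11.67, 11.74 and 11.49 (-0.12 ± 0.10, adjusted p = 0.562), with overlap. A second probe set of Mbl2 gave -1.42 for Aap_24h, -1.0 for DES_3d and -0.04 for ETH_3d. For DHEA_7d, where the main probe set gave -1.06, it gave -0.40 and was not called.

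Masp1, a gene of the lectin pathway proteases, was lower in 12 groups of DHEA, Wy, Aap, CPA, PBO and MDA. Its largest fall was at 14 days of CPA (-0.91 ± 0.14). In CPA_14d 3 of 4 macrophage markers were also lower (mean level 8.71 to 9.16, against 9.37 to 9.99), as were 2 of 3 red cell markers, Kdr of endothelium (-0.91) and Col3a1 of stellate cells and fibroblasts (-1.62), and their part in the fall was not tested. Masp1 is known for several transcripts that encode different proteins, and its probe sets differed. A second probe set was lower in 9 groups and higher in 1, and only 1 group (Aap_24h) was shared. That probe set was lower at all 4 times of nifedipine, by -0.69 to -0.91, whereas at 7 days of nifedipine the main probe set changed by 0.45 ± 0.14 (adjusted p = 0.0155). The third probe set was called in no group. Which transcript each probe set reads was not analysed here.

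Among the later complement components, C9, which forms the membrane pore, fell in ETH_3d (-0.88 ± 0.08), CPA_1d (-0.82 ± 0.09) and Aap_24h (-0.69 ± 0.09). Cfi, complement factor I, the protease that inactivates C3b and C4b, fell in 5 groups of DHEA, Wy and ETH. At 3 days of Wy it read 12.45, 11.84 and 11.99, while 6 vehicle animals lay between 12.96 and 13.06 with a median of 13.04, a change of -0.93 ± 0.07. C8b, a chain of the pore component C8, fell in 4 groups, with its largest change at 1 day of DES. There it read 10.22 and 10.48 in the 2 treated animals and 11.76, 12.27, 12 and 11.68 in vehicle animals (-1.58 ± 0.43, adjusted p = 0.00506). C8b was also the member with the widest spread among vehicle animals of one group (SD 0.46), and without the first DES_1d animal its change was -1.45 with an adjusted p of 0.111, a fit in which the lone treated animal is assumed to vary like the other groups. C3, the central component of all pathways, was called in no group: its changes ran from -0.26 to 0.10, and 11 groups were lower by adjusted p alone.

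**Figure D3:**
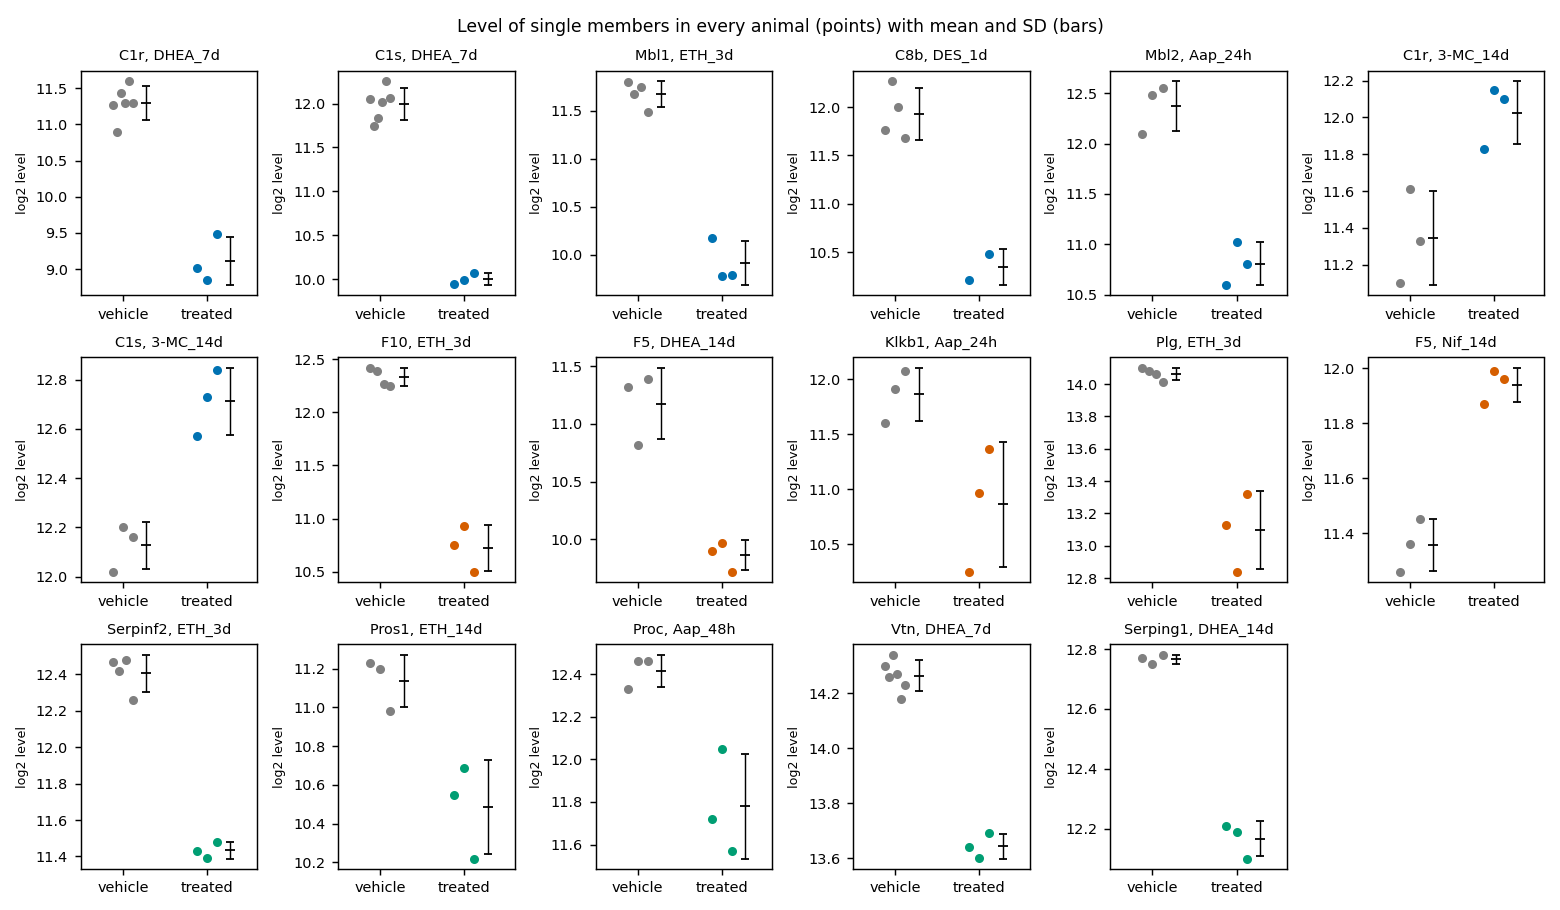
Log2 level of single members in every vehicle animal (grey) and treated animal (coloured by role), with the mean and SD beside the points; each panel has its own scale, which does not start at 0. Only called pairs without overlap of arrays were chosen for the 17 panels, so that the separation in each follows from the choice. The treated animals lie below the vehicle animals, or above them for C1r and C1s with 3-MC and F5 with nifedipine.

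Of the clotting genes, F10, F5 and Klkb1 carried 34 of the 35 falls. F10 encodes coagulation factor X, the vitamin K-dependent protease that turns prothrombin into thrombin. At 3 days of ETH it read 10.75, 10.93 and 10.5 against 12.42, 12.39, 12.27 and 12.25, and the groups lay more than 1 log2 unit apart. The change was -1.61 ± 0.07 (3.05-fold lower, adjusted p = 8.43e-60). F10 was lower at every time of ETH (-0.59 to -1.61) and fell in 12 groups of 9 compounds, the widest set of compounds for any member. Among these were single falls with acetamide (-0.76 ± 0.07 at 7 days), methapyrilene (-0.62 ± 0.07 at 7 days) and thioacetamide (-0.65 ± 0.07 at 3 days), compounds in which no other member passed both thresholds. By adjusted p alone, F10 included, 10 members were lower with acetamide, 10 with methapyrilene and 11 with thioacetamide at those times. The share of all genes by that measure was 3.46% over all groups, and it was not worked out for these groups alone. By both thresholds 1.53% (AA_7d), 0.941% (MPy_7d) and 1.04% (TAA_3d) of all genes were lower, each above the 0.78% over all groups.

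F5, factor V, is the cofactor of factor X. It fell in 11 groups, at all 4 times of DHEA and of ETH, both times of Wy, and at 1 day of PBO. At 14 days of DHEA it read 9.9, 9.97 and 9.72 against 11.32, 10.82 and 11.39, with no overlap (-1.31 ± 0.18, 2.49-fold lower, adjusted p = 6.4e-10). By the main probe sets it was also the only clotting gene that rose. After 14 days of nifedipine (3 mg/kg) F5 read 11.87, 11.99 and 11.96 against 11.26, 11.36 and 11.45 (0.59 ± 0.18, 1.5-fold, limma adjusted p = 0.0251). The arrays did not overlap. The rise was not called after quantile normalization (0.53, adjusted p = 0.0541) or when any one replicate number was left out of every group (adjusted p 0.0871 to 0.199).

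Klkb1 encodes plasma prekallikrein of the contact system. It fell in 11 groups of 7 compounds, most at 24 hours of Aap, where it read 10.25, 10.97 and 11.37 against 11.6, 11.91 and 12.08 (-1.0 ± 0.18, 2-fold lower, adjusted p = 1.2e-06). The treated animals differed widely (SD 0.57) but none overlapped. In a limma fit of these groups alone the adjusted p was 0.0316. At 48 hours the change of Klkb1 was 0.03 ± 0.18. Plg, plasminogen, the precursor of plasmin, fell once, at 3 days of ETH. There it read 13.13, 12.84 and 13.32 against 14.1, 14.08, 14.06 and 14.01 (-0.97 ± 0.05, 1.95-fold lower, adjusted p = 8e-52). A limma fit of these groups alone gave an adjusted p of 0.000298 for Plg. F2, prothrombin, was called in no group, with changes from -0.37 to 0.24.

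The fibrinogen genes Fga, Fgb and Fgg, which encode the chains of the clot protein and lie close together on chromosome 2, were called in no group by their main probe sets. In ETH_3d, where F10 and Plg fell, Fgb read 14.09, 14.17 and 14.07 against 14.11, 14.06, 14.07 and 14.06, and the changes of Fga, Fgb and Fgg were 0.06, 0.03 and 0.04. In DHEA_14d they were -0.32, -0.45 and -0.19, all past the adjusted p but not the fold. The lowest change of Fgb was -0.58 ± 0.07 in CPA_1d, just short of the fold threshold.

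For Fga this result rests on the probe set. The main probe set, the brightest, changed by -0.48 to 0.23. A second one was lower in 12 groups (all times of CPA and DHEA, both of PBO, and Wy_1d and DES_1d) and higher in 2 (Aap_12h and Ibup_1d). At 1 day of CPA this second probe set read 11.12, 11.07 and 11.32 against 11.99, 12.16 and 12.35 (-1.0). The main probe set read 12.73, 12.89 and 12.99 against 13.21, 13.29 and 13.29 (-0.39). Both were separated from the vehicle animals in the same direction, and in all 14 groups the main probe set had the sign of the second. In Aap_12h the second probe set rose by 0.90, with treated animals at 12.19, 13.46 and 12.42 against 11.63, 11.91 and 11.82.

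Bright probe sets gave few calls. The 9 members with a vehicle mean above 13 had 5 calls in all, and the other 15 had 110, on an array whose highest value was 15.19. Whether brightness limits the change that these probe sets can show was not tested.

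**Figure D4:**
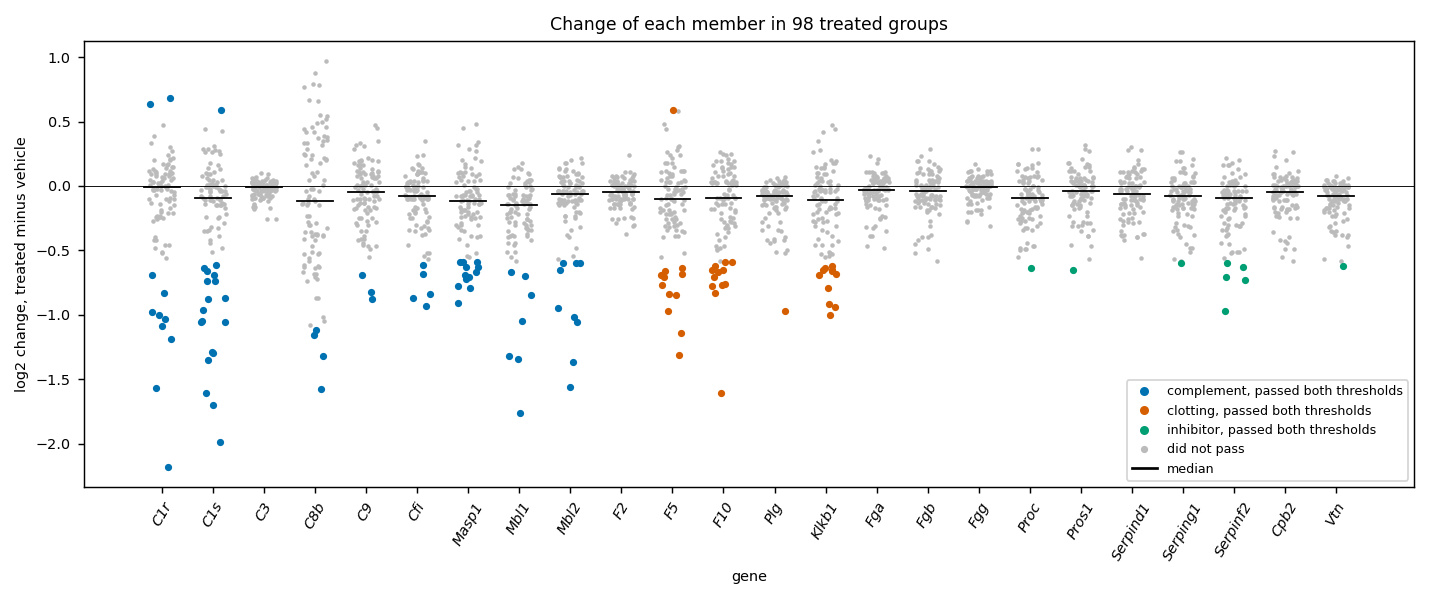
Log2 change of each member in the 98 treated groups, 1 point per group, with the median as a black line; coloured points passed both thresholds and grey points did not. Medians lie between -0.15 and -0.01, the longest tails reach downward for C1r, C1s, Mbl1, F10, C8b and Mbl2, and C3, F2 and Fgg stay in a narrow band.

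The inhibitors and regulators changed by less. Serpinf2, alpha-2-antiplasmin, which blocks plasmin, was the one that fell most often, in 5 groups of DHEA, Wy and ETH. At 3 days of ETH it read 11.43, 11.39 and 11.48 against 12.47, 12.42, 12.48 and 12.26 (-0.97 ± 0.08, 1.96-fold lower, adjusted p = 5.11e-27). The animals of each arm lay close together and far from the other arm. Its target, Plg, fell in the same group by the same -0.97.

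Each of 4 other regulators fell once. Pros1, protein S, the cofactor of activated protein C, read 10.55, 10.69 and 10.22 at 14 days of ETH against 11.23, 11.2 and 10.98 (-0.65 ± 0.09, adjusted p = 4.59e-10). Proc, protein C, which inactivates factor V, read 11.72, 12.05 and 11.57 at 48 hours of Aap against 12.33, 12.46 and 12.46 (-0.64 ± 0.08, adjusted p = 5.71e-12). Arrays did not overlap in either case.

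Vtn, vitronectin, which binds terminal complement complexes, read 13.64, 13.6 and 13.69 at 7 days of DHEA, while its 6 vehicle animals lay between 14.18 and 14.34 with a median of 14.27 (-0.62 ± 0.05, adjusted p = 6.83e-29). Serping1, the C1 inhibitor that blocks C1r, C1s and kallikrein, read 12.21, 12.19 and 12.1 at 14 days of DHEA against 12.77, 12.75 and 12.78 (-0.60 ± 0.08, adjusted p = 2.26e-11). All 4 falls lay near the fold threshold. Pros1 (-0.52) and Serping1 (-0.57) were under 1.5-fold without the third treated animal, and Proc (-0.51) was so when replicate 3 was left out of every group. Serpind1, heparin cofactor II, and Cpb2, a carboxypeptidase that protects fibrin, were called in no group, with lowest changes of -0.56 and -0.58. Vtn was lower by adjusted p alone in 31 groups, the most of any member, although all but 1 of these were under 1.5-fold.

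The compounds differed in which members fell and when. Wy-14643, a peroxisome proliferator (60 mg/kg), had the most falls of any group at 1 day: 10 of 24 members, against 1.72% of all genes. These were C1r (-0.69), C1s (-1.06), C8b (-1.16), Cfi (-0.61), Masp1 (-0.63), Mbl1 (-0.67), Mbl2 (-0.60), F5 (-0.85), Klkb1 (-0.65) and Serpinf2 (-0.71), and all 24 members lay below 0. C1s read 10.83, 11.04 and 11.17 against 12.07, 12.07 and 12.08. The third Wy_1d animal carried transcripts of pancreas (mean of 5 pancreas markers 9.70, with a group median of 5.91), and without it 10 members were again called lower. At 3 days 7 members fell, against 1.59%, and 23 lay below 0. In Wy_1d all 6 hepatocyte markers also lay below 0 (median -0.25), and of these Apoa1 was called (-0.67). Their mean level was 13.21 to 13.31, against 13.45 to 13.63 in vehicle animals. In Wy_3d their median was again -0.25 with no call, and 1 of 4 macrophage and 1 of 3 red cell markers were lower. The part of these cells in the falls was not tested.

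DHEA lowered 3 members at 1 day (0.807% of all genes), 6 at 3 days (1.86%), 9 at 7 days (2.87%) and 8 at 14 days (2.56%). The median change of the members was lowest at 7 days (-0.56) and stood at -0.46 at 14 days, and C1r and C1s were likewise lowest at 7 days. C1s and F5 fell at all 4 times, and Cfi, Klkb1, Vtn and Serping1 passed both thresholds only at 7 or 14 days. The change at 14 days differed from that at 1 day for C1r (-1.19 against -0.51, difference -0.67 ± 0.19, adjusted p = 0.0216) and for C1s (-1.61 against -0.64, difference -0.97 ± 0.22, adjusted p = 0.00226). In DHEA_7d 2 of 4 macrophage markers (mean level 8.8 to 8.93, against 8.83 to 9.62) and 2 of 3 red cell markers (9.31 to 9.73, against 10.31 to 10.88) were also lower, as was the hepatocyte gene Apoa1 (-0.99 ± 0.11), while the other 5 hepatocyte markers were not called. In DHEA_14d 3 of 4 macrophage markers (8.87 to 9.13, against 9.6 to 9.84), 2 of 3 endothelial markers (8.34 to 8.61, against 9.01 to 9.04), Col3a1 (-1.16) and Apoa1 (-0.67) were lower. Epcam was higher at both times (0.81 and 1.04). The part of these cells in the falls was not tested. In bulk liver, fewer cells of a type and less RNA per cell cannot be told apart.

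Ethionine (200 mg/kg) lowered 3 members at 1 day (4.55% of all genes), 9 at 3 days (5.8%), 4 at 7 days (1.71%) and 5 at 14 days (3.59%). Mbl1, F5 and F10 fell at each time. At 3 days C1s, C9, Cfi, Klkb1, Plg and Serpinf2 fell as well, and the count of 9 was the same without any one animal of the group or its vehicle group. The count at 7 days was less firm, at 2 without either of 2 treated animals and 7 without the third. In ETH_3d all 4 macrophage markers rose by 1.34 to 2.17, with mean marker levels of 11 to 11.08 in treated animals against 9.14 to 9.5 in vehicle animals. Of 6 hepatocyte markers, Hpd was lower (-1.08 ± 0.08) and the other 5 were not called. The part of these cells in the falls was not tested.

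Acetaminophen (4250 mg/kg) gave 1 fall at 6 hours (2.81% of all genes), 2 at 12 hours (1.31%), 8 at 24 hours (4.8%) and 2 at 48 hours (4.41%). For 24 members, the counts at 6 and 48 hours lay near these shares. At 24 hours C1r (-1.0) and C1s (-0.96), Mbl1, Mbl2, Masp1, C9, F10 and Klkb1 fell. The count was 5 without the first treated animal and 10 without the second. Of 4 macrophage markers Lyz2 rose (1.33) and Clec4f fell (-0.73), with a mean level of 9.53 to 9.63 against 9.49 to 9.64, and none of 6 hepatocyte markers was called. S100a9 of neutrophils (0.76) and Epcam of bile duct (0.84) were higher, and Kdr of endothelium (-0.71) and Col3a1 (-0.80) lower. In Aap_48h, where Proc and Mbl2 fell, 2 of 4 macrophage markers were higher (mean level 10.2 to 10.23, against 9.49 to 9.69), 2 of 3 red cell markers lower (8.25 to 8.54, against 10.15 to 10.65) and the hepatocyte gene Hpd lower (-0.63). S100a9 (0.65) and Acta2 of stellate cells (1.04) were higher there. The part of these cells in the falls with Aap was not tested. Between 6 and 48 hours the change differed for Mbl2 (difference -0.77 ± 0.19) and for Pros1 (0.03 at 6 hours and -0.57 at 48 hours, difference -0.60 ± 0.13, adjusted p = 8.57e-05).

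CPA (100 mg/kg), a steroidal antiandrogen, lowered 5 members at 1 day (2.28% of all genes) and 3, 2 and 2 at 3 days (1.92%), 7 days (1.2%) and 14 days (2.05%), of which C1s fell at all 4 times and Masp1 at the last 3. The count at 1 day was 9 without the first vehicle animal. PBO (1200 mg/kg), an insecticide synergist, lowered 5 at 1 day (2.57%) and 2 at 3 days (1.29%), and the count at 1 day was 3 without the second vehicle animal. DES (10 mg/kg) lowered C1r, C1s, C8b and F10 at 1 day (4 members in 2 treated animals, against 1.25%) and C1r, C1s and Mbl2 at 3 days (2.19%).

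**Figure D5:**
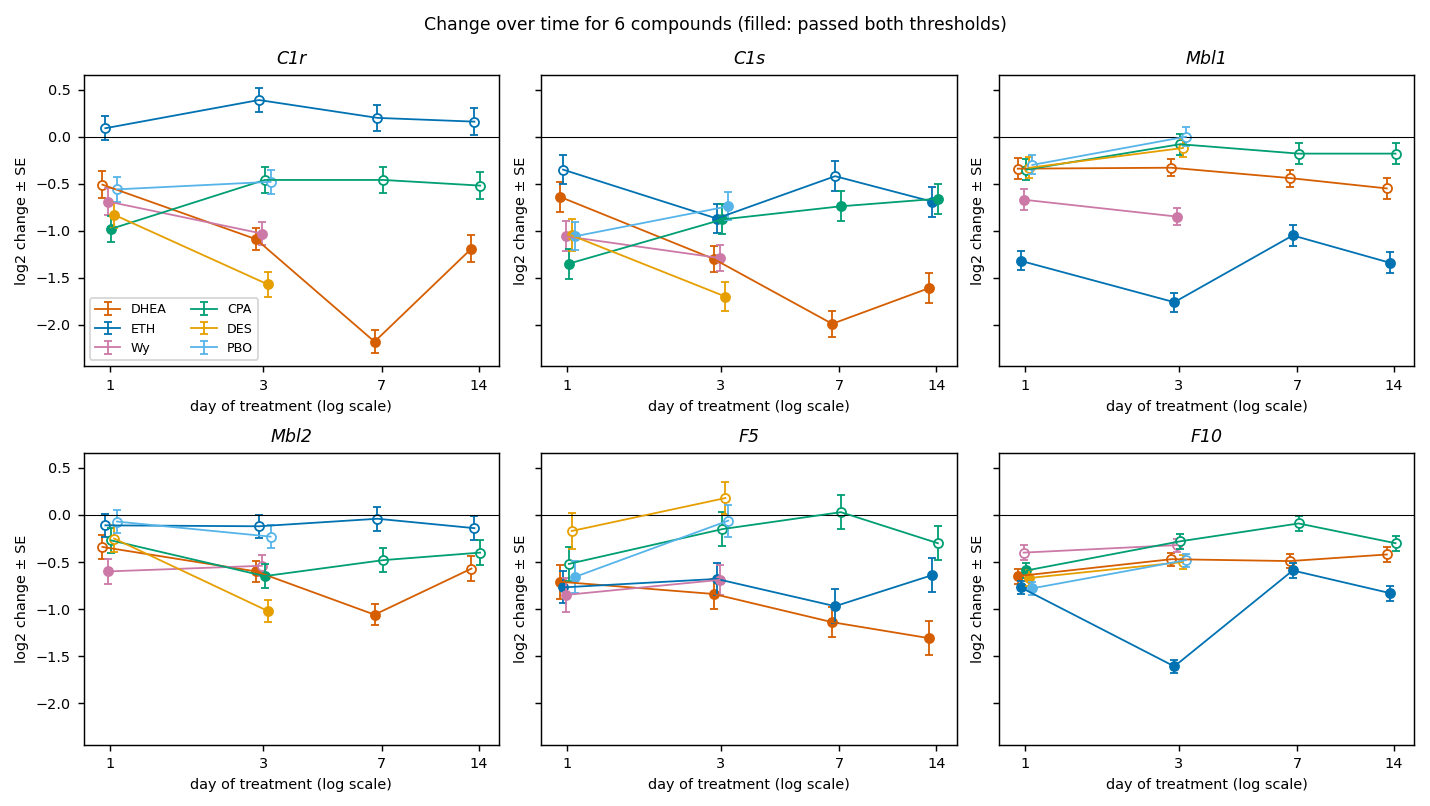
Log2 change ± SE of C1r, C1s, Mbl1, Mbl2, F5 and F10 against the day of treatment (log scale) for DHEA, ETH, Wy, CPA, DES and PBO; filled points passed both thresholds. C1r and C1s drop with DHEA to about 4-fold lower at day 7, Mbl1 is lowest in ETH at every day, and F10 dips to -1.61 at day 3 of ETH.

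Over all 30 compounds and 24 members, the change at the last time differed from that at the first in 8 of 720 pairs (1.11%), 7 lower and 1 higher, against 0.531% lower and 0.644% higher over all genes, 1.17% in all. The members' share was thus near that of all genes, and the count was 5 without replicate 1 and 2 without replicate 3 of every group. Beside the pairs given above these were C1r (-0.74 ± 0.19) and Mbl2 (-0.77 ± 0.19) with DES, Masp1 with MDA (-0.74 ± 0.19) and C8b with Wy (1.93 ± 0.54). In the last case C8b read 12.31, 12.36 and 12.21 in vehicle animals at 1 day, while the 6 vehicle animals at 3 days lay between 10.6 and 11.81, so that the vehicle levels moved as well as the treated ones.

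The study asked whether classes of compounds can be told apart, and with the compound as the replicate no member separated them. None of the 24 members passed an adjusted p of 0.05 in limma for 8 non-genotoxic against 2 genotoxic carcinogens, or for these 10 carcinogens against 2 non-carcinogens. At an unadjusted p below 0.05 there were 5 and 4 of the 24 members, against 1088 and 817 of 10411 genes. The lowest adjusted p of a member were 0.387 for C9 and 0.542 for F10. Over all genes 15 and 0 were called.

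Within a vehicle group most members varied little. Over the vehicle arrays the SD within groups lay between 0.04 (C3 and Vtn) and 0.23 (F5), apart from C8b at 0.46. Between vehicle groups the means of some members spanned more than 1.5-fold: C8b (11.1 to 12.3), Klkb1 (11.48 to 12.32), F5 (10.75 to 11.56) and Masp1 (10.19 to 10.79). Within vehicle groups C1r and C1s varied together (Pearson r 0.69 over the arrays of 38 vehicle groups, a description). The fibrinogen genes did so less (r 0.53 for Fga and Fgg, 0.41 for Fgb and Fgg, 0.33 for Fga and Fgb), and Mbl1 and Mbl2 not at all (r -0.01), against a median of 0.15 over 276 pairs of members. Arrays share their preparation and scaling, which such values include.

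Ibuprofen (94 mg/kg) had no call, and many members lay above 0. For 9 members the highest change over all groups was in an ibuprofen group, and 20 of 24 members lay above 0 at 3 days. Ibup_3d shares its vehicle arrays with CFX_3d, where 5 of 24 members lay below 0, and such a lean was also found in AlAl_1d, with 2 of 24 below 0. C9 read 14.12, 13.97 and 13.96 at 3 days against 13.55, 13.6 and 13.5 (0.47 ± 0.09, adjusted p = 0.000906). The arrays did not overlap, but the change was 1.38-fold and thus under the threshold.

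Other genes of the same pathways were measured beside the members. Of 43 further complement and clotting genes 32 had a probe set. Over all treated groups 67 of 3136 pairs (2.14%) were higher and 45 (1.43%) lower, against 1.13% and 0.78% over all genes. The C1q chains, which are made by macrophages and bind C1r and C1s, were called in both directions: C1qa was higher in 10 groups and lower in 5, C1qb in 12 and 5, and C1qc in 13 and 6. In ETH_3d, C1qa read 11.62, 11.44 and 10.85 against 9.61, 9.6, 9.41 and 9.99 (1.65 ± 0.21), while C1s fell by 0.87 and the macrophage markers rose. In CPA_1d, C1qa (-0.83), C1qb (-0.71) and C1qc (-0.69) fell beside C1r and C1s, and 2 of 4 macrophage markers were lower there too (mean level 8.82 to 9.33, against 9.59 to 9.77). Whether these move together for a shared reason was not tested.

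Vkorc1, the enzyme that recycles vitamin K for factor X, prothrombin, protein C and protein S, fell in 4 groups. In ETH_3d it read 10.6, 11.15 and 10.66 against 12.47, 12.5, 12.2 and 12.33, with no overlap (-1.57). In the same animals the vitamin K-dependent members changed by -1.61 (F10), -0.48 (Proc), -0.37 (F2) and -0.31 (Pros1), of which F10 alone passed both thresholds. Tfpi, the inhibitor of the tissue factor pathway, was higher in 8 groups and lower in none.

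Among 11 other acute phase proteins 25 of 1078 pairs (2.32%) were higher and 20 (1.86%) lower, against 1.13% and 0.78% over all genes. A2m, alpha-2-macroglobulin, which rises strongly in inflamed rats, was higher in 8 groups, with 9.81, 10.98 and 9.61 in ETH_3d against 7.54, 7.55, 8.52 and 8.03. The 3 fibrinogen genes, also known as acute phase genes, changed by at most 0.06 in that group. Of 17 transcription factors and signals of the liver 15 were measured, with 38 of 1470 pairs (2.59%) higher and 27 (1.84%) lower. Foxa1, a liver transcription factor, was lower in 7 groups, among them ETH_3d (-1.0), and Cebpa was higher in DHEA_7d (0.93) where C1r and C1s were lowest.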

How the data were processed

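Livers of treated and vehicle rats were measured on Affymetrix RAE230A arrays, 1 per animal. The deposited values are log2 expression per probe set, made by the authors with RMA (background correction, quantile normalization and summary of probes), which draws arrays toward 1 distribution; no source used here gives the RMA version. Depth does not apply to arrays.

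From these values 136 group means were fitted over all arrays with limma 3.58.1 in R 4.3.3 (residual df 285, prior df 4.67), and each treated group was set against the vehicle group its label names. Adjusted p-values are Benjamini-Hochberg over 15866 probe sets per comparison, and a call needed an adjusted p below 0.05 and 1.5-fold. A gene is its probe set with 1 symbol and the highest mean. Probe sets carried 1 symbol (12783), several (312) or none (2771). Values in every animal are given for the called pairs with the largest change per role and direction and no overlap of arrays (1 pair per member, up to 5 per role and direction), and for fibrinogen beside them. Groups are described where at least 9 members were called, with the other times of the compound. Other pairs, groups and list genes were named after their values were seen.

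The members, roles, gene lists and motifs were chosen with earlier results of these data known. Alternatives were own groups only, quantile normalization, a mean filter, no fold threshold, the mean of probe sets, adjustment over all comparisons, a variance trend, a replicate block and leaving out arrays. The scripts were tested on simulated data. Summaries used Python 3.11.15 with pandas 2.3.3, and plots matplotlib 3.10.9.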

Additional observations from a re-analysis of the deposited data

Results flagged for a closer look

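In 8 pairs of a member and a compound the change differed between the last and the first time of a compound, by the limma contrast of both changes. These are 1.11% of 720 pairs, near the 1.17% over all genes, and the count was 2 without replicate 3 of every group. In acetaminophen Mbl2 went from -0.60 at 6 hours to -1.37 at 48 hours, a difference of -0.77 ± 0.19 (adjusted p = 0.000545), and Pros1 from 0.03 to -0.57, a difference of -0.60 ± 0.13 (adjusted p = 8.57e-05). In diethylstilbestrol, between 1 and 3 days, C1r went from -0.83 to -1.57 (difference -0.74 ± 0.19, adjusted p = 0.0197) and Mbl2 from -0.25 to -1.02 (difference -0.77 ± 0.19, adjusted p = 0.0104), with 2 treated animals at the first time. In DHEA the differences between 14 days and 1 day were -0.67 ± 0.19 for C1r and -0.97 ± 0.22 for C1s. Masp1 in methylendianiline went from -0.04 to -0.78 (difference -0.74 ± 0.19, adjusted p = 0.0401). C8b in Wy-14643 went from -1.16 to 0.78 (difference 1.93 ± 0.54, adjusted p = 0.021), with vehicle levels that differed between the times. The search for single animals far from their group covered 8 sets of values from 4 or 6 vehicle animals, among the 17 pairs given animal by animal, and found 0.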

How the results depend on the processing

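Without a fold threshold, complement had 12 higher and 158 lower, clotting 11 and 129, and inhibitors 7 and 147; the time contrast gave 25. Members lower were then 16 in Aap_24h and ETH_3d, 21 in CPA_1d and DHEA_14d, 10 in DES_1d, 19 in DHEA_3d, 22 in DHEA_7d and Wy_3d, 14 in ETH_14d, 12 in ETH_7d, 18 in PBO_1d and 23 in Wy_1d. After quantile normalization clotting had 0 higher and inhibitors 16 lower; in fits of own groups ETH_7d had 2. With the mean of the probe sets of each gene, complement had 3 higher and 53 lower, against 67 lower in the main fit. Clotting had 1 higher and 40 lower, against 35 lower in the main fit. Leaving out 1 replicate number gave complement 2 to 4 higher and 61 to 69 lower, clotting 0 to 1 and 29 to 33, inhibitors 13 to 17 lower and 2 to 7 time differences. Leaving out single arrays gave 5 to 10 for Aap_24h, 4 to 9 for CPA_1d, 2 to 7 for ETH_7d and 3 to 7 for PBO_1d. Replicate numbers did not pair the arrays (mean r 0.0131 over 293 pairs; every pair over 0.1 in 4 of 98 groups). With the replicate block complement had 3 higher and 66 lower, clotting 1 and 35, inhibitors 9 lower, Wy_3d 6 and the time contrast 9. Over 290 repeats of 17 single pairs, 272 kept their call, 18 lost it and 0 reversed. C8b in DES_1d lost it at adjusted p 0.0742 to 0.111 and F5 in Nif_14d at 0.0541 to 0.199 (limma); the cause was not tested. Fits of own groups gave no time contrast. Groups of 2 or 3 animals limit precision, and bright probe sets had few calls.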

Other observations

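Acute phase proteins other than the members did not move as a block. Orm1, a plasma carrier protein, was higher in 11 groups and lower in none, most in DES_3d (1.27), where C1r, C1s and Mbl2 fell. Lcn2, an iron-scavenging defence protein, was higher in 6 groups, most in Aap_48h (3.24). Apcs, serum amyloid P, was lower in 9 groups, most in Wy_3d (-1.01), and Cp, ceruloplasmin, in 5, most in ETH_3d (-1.43). The change of A2m ran from 5.0 in ETH_14d to -2.18 ± 0.54 in 3-MC_14d, where C1r and C1s rose.

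Transcription factors of the liver moved in both directions. Hnf4a was higher in 9 groups and lower in 6, from -1.39 in Nif_7d to 1.36 in DHEA_1d, and Cebpa higher in 4 and lower in 6, from -1.7 in Nif_14d, where F5 rose, to 0.93 in DHEA_7d. Stat3 was higher in 8 groups and Cebpb in 6.

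Cell type markers over all treated groups, as pairs higher and lower, were 5 and 8 of 588 for hepatocyte, 38 and 20 of 392 for macrophage, 8 and 0 of 196 for neutrophil, 4 and 9 of 294 for endothelium and 20 and 6 of 588 for stellate cell and fibroblast. Bile duct had 22 and 3 of 392, red cell 0 and 23 of 294, muscle 8 and 9 of 490 and pancreas 15 and 10 of 490. The shares were 0.85% and 1.36% for hepatocyte, 9.69% and 5.1% for macrophage, 4.08% and 0% for neutrophil and 1.36% and 3.06% for endothelium. They were 3.4% and 1.02% for stellate cell and fibroblast, 5.61% and 0.765% for bile duct and 0% and 7.82% for red cell. Muscle had 1.63% and 1.84% and pancreas 3.06% and 2.04%, against 1.13% and 0.78% over all genes. Pancreas transcripts stood more than 1 log2 unit above the group median in 4 arrays, of which the third Wy_1d animal was the only one in a group with a member that fell.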
